A study of Mus musculus with 6 samples.

Results

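The pore of every voltage-gated calcium channel is formed by 1 large subunit, and the mouse genome holds 10 genes for it: Cacna1a, Cacna1b, Cacna1c, Cacna1d, Cacna1e, Cacna1f, Cacna1g, Cacna1h, Cacna1i and Cacna1s. They were taken by gene symbol from a table of 49997 genes measured by RNA sequencing of whole mouse retina, and all 10 were among the 20277 genes that passed a filter on low values (at least 10 in 3 or more libraries). Polyadenylated RNA from 1 retina per library was converted to cDNA with a low-input SMARTer kit and amplified for 15 cycles. Of the 6 libraries, 3 came from male mice labelled Samd7 knockout (-10A) at postnatal day 31 and 3 from male c57Bl6/j wild-type mice at postnatal day 36. Samd7 encodes a photoreceptor protein of the Polycomb system, which keeps genes silent, and the comparison addressed how the retina's gene expression differs between the knockout and the wild type. Every difference below is therefore also a difference of age, and the effects of genotype and age cannot be told apart. No label states that retinas of the same group are from different mice, and the p-values measure only how these retinas vary.

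Values are read counts divided by a size factor for each library, called normalised counts here. Libraries held 44.2 to 62.8 M reads. Samd7 itself was higher, not lower, in the libraries labelled Samd7 KO, with normalised counts of 57837, 45755 and 44932 against 6349, 8141 and 8122 in the wild type. This is a 6.57-fold difference in the direction opposite to the loss of transcript that a knockout label could imply, and the table does not show whether these transcripts carry the altered allele. The groups are therefore named by their labels throughout. A gene is called different when its Benjamini-Hochberg adjusted p from limma, fitted to log2(normalised count + 1) over all genes tested, is below 0.05.

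The pore subunits fall into 3 classes. Cav1 (L-type) channels tend to stay open while the membrane is depolarised. The photoreceptor form encoded by Cacna1f carries the calcium current that drives sustained glutamate release at the ribbon synapse. Cav2 channels trigger fast release at most other synapses, and Cav3 (T-type) channels open near the resting potential and inactivate quickly. The pores of the Cav1 and Cav2 classes assemble with β and α2δ subunits that govern their delivery to the membrane and their gating.

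Of the 10 pore subunit genes, 2 were called higher and 1 was called lower under the Samd7 KO label. Cacna1h, a T-type pore subunit, was 15.5-fold higher, Cacna1a was 1.58-fold higher and Cacna1s was 1.41-fold lower. Across all genes tested 12% were called, with 6.79% higher and 5.21% lower, and 56.6% of the calls were higher. When libraries were scaled by total reads instead, 71.2% of the calls were higher. The median log2 fold change was 0.01 over the 10 members, -0.06 over the 9 other than Cacna1h and 0.00 over all genes tested. Groups did not overlap for 6 of the 10 members, against 31.1% of all genes tested.

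**Figure D1:**
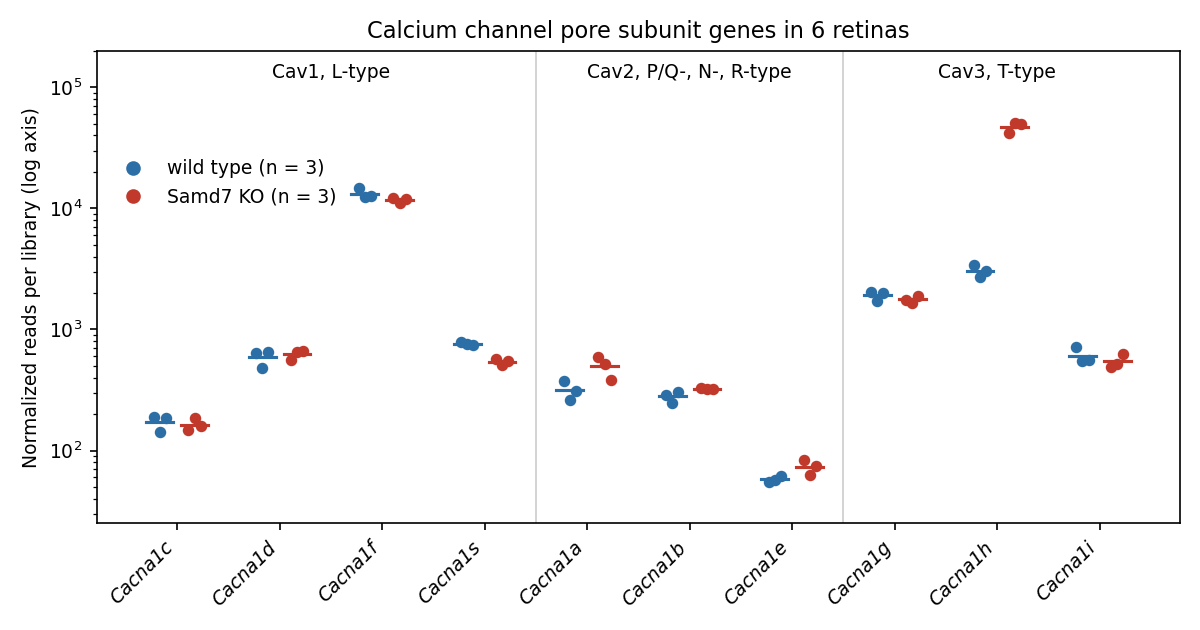
Normalised counts on a log axis for the 10 pore subunit genes, with 1 point per retina and a bar at each group's mean. The 3 retinas labelled Samd7 KO lie at 42165 to 50297 for Cacna1h, above the wild-type range of 2696 to 3403, while the groups lie close together for the other members.

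Among the T-type genes, Cacna1h set itself apart. Its normalised counts were 42165, 50297 and 49376 in the retinas labelled Samd7 KO and 3403, 2696 and 3044 in the wild type. Every retina labelled Samd7 KO exceeded every wild-type retina by more than the spread within either group. The means were 47279 ± 4453 and 3048 ± 353 (SD, n = 3 each), a log2 difference of 3.96 (95% interval 3.75 to 4.16, SE 0.09, limma adjusted p = 1.42e-10). These values rest on 37363 to 51310 recovered reads per library labelled Samd7 KO and 2491 to 3977 per wild-type library. Cacna1h ranked 32 among 20277 genes by log2 fold change. In the authors' deposited table its log2 fold change was 3.95 with an SE of 0.11.

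The other T-type genes were not called. Cacna1g, which is common in thalamic and other rhythmically firing neurons, had 1740, 1663 and 1901 normalised counts in the retinas labelled Samd7 KO and 2052, 1731 and 1986 in the wild type. Cacna1i, a brain T-type subunit with slow kinetics, had 493, 517 and 630 against 716, 547 and 561. The groups overlapped for both genes. Their log2 differences were -0.12 (95% interval -0.33 to 0.09) for Cacna1g and -0.15 (-0.45 to 0.15) for Cacna1i, with limma adjusted p of 0.463 and 0.534. The intervals leave room for moderate decreases and only small increases, and for no change as large as that of Cacna1h.

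In the L-type class, Cacna1f was the most abundant member and was not called. Its normalised counts were 12281, 11017 and 11975 in the retinas labelled Samd7 KO and 14698, 12410 and 12570 in the wild type. All 3 values lay below the wild-type range, by a narrow margin. The means were 11757 ± 660 and 13226 ± 1277 (SD, n = 3 each), a log2 difference of -0.17 (95% interval -0.34 to 0.01, limma adjusted p = 0.207). Rod markers were lower in the same libraries: 5 of 6 were called lower, and their summed normalised counts were 2307095 to 2504061 against 3934226 to 4311937. In RNA from whole retina, fewer cells of a type and less RNA per cell cannot be told apart.

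Cacna1s, the L-type subunit that couples excitation to contraction in skeletal muscle, was called lower. It had 568, 508 and 544 normalised counts in the retinas labelled Samd7 KO and 789, 754 and 737 in the wild type. The groups were well separated relative to their spread. The means were 540 ± 30.0 and 760 ± 26.4 (SD, n = 3 each), a log2 difference of -0.49 (95% interval -0.72 to -0.27, limma adjusted p = 0.00760). Skeletal muscle markers had similar sums in both groups, 339 to 414 against 368 to 401, with the myosin heavy chains Myh1, Myh2 and Myh4 at or near 0 and 0 of the 4 tested markers called. The part of the lower rod markers in the Cacna1s difference was not tested.

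The remaining L-type genes showed overlapping groups. Cacna1d, expressed in hair cells and many neurons, had 556, 652 and 666 normalised counts against 643, 484 and 648, a log2 difference of 0.09 (95% interval -0.21 to 0.38, limma adjusted p = 0.733). Cacna1c, the cardiac and smooth muscle subunit, had 147, 186 and 159 against 187, 142 and 184, a log2 difference of -0.06 (-0.43 to 0.31, limma adjusted p = 0.862). Neither gene had a group that stood to one side. Cacna1c overlaps Dcp1b and Cacna1d overlaps Chdh and Dcp1a, all on the opposite strand. No source used here gives a strand setting for the counting, and the reads of such pairs may not have been told apart.

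The start regions of the photoreceptor subunit gene Cacna1f and of Cacna1s, the L-type member that was called, are printed to show how they differ in a short photoreceptor motif. Each covers the 250 bases before an annotated start (RefSeq, GRCm38.p6), on the + strand, at chrX:7606853-7607102 for Cacna1f and chr1:136052561-136052810 for Cacna1s. Capitals mark TAATCC, the core read by the photoreceptor homeobox factors Crx and Otx2, searched on both strands.
Cacna1f: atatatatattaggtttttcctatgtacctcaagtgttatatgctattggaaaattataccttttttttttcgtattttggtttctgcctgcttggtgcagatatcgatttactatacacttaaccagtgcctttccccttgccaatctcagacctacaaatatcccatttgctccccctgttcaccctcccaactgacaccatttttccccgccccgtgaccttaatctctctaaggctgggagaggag
Cacna1s: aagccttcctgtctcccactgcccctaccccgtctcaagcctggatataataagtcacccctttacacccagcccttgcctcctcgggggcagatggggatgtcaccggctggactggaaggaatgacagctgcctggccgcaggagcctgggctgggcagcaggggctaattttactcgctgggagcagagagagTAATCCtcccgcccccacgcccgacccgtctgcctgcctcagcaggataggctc
The Cacna1s window held the motif once, on the + strand at 54 to 49 bases before the start, and the Cacna1f window did not hold it. Of 32851 promoter windows of this length, 6.25% held it. RefSeq windows matched 7 of the 10 members, with 10 windows in all, and the Cacna1s match was the only one among them. A match is a description of the letters and not evidence of binding. Cacna1a, Cacna1g and Cacna1h had no window here.

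Of the Cav2 genes, Cacna1a, the P/Q-type subunit of fast synapses, was called higher. It had 595, 522 and 382 normalised counts in the retinas labelled Samd7 KO and 374, 263 and 309 in the wild type. The groups did not overlap, but the lowest retina labelled Samd7 KO lay just above the highest wild-type retina. The means were 499 ± 108 and 315 ± 55.7 (SD, n = 3 each), a log2 difference of 0.65 (95% interval 0.27 to 1.04, limma adjusted p = 0.0323). The call ended when replicate 1 or 2 labelled Samd7 KO was left out (limma adjusted p = 0.0661 and 0.0902), when wild-type replicate 2 or 3 was left out (0.133 and 0.105), and when a trend with gene length was removed (0.0641).

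The other Cav2 genes were not called, although every retina labelled Samd7 KO lay above the wild type in both. Cacna1b, the N-type subunit, had 327, 321 and 323 normalised counts against 287, 249 and 306, a log2 difference of 0.21 (95% interval -0.07 to 0.49, limma adjusted p = 0.320). Cacna1e, the R-type subunit, had 83.5, 62.2 and 74.1 against 54.8, 57.4 and 62.1, a log2 difference of 0.32 (-0.12 to 0.76, limma adjusted p = 0.344). Cacna1e was the lowest member in both groups, and its ranges almost touched.

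Levels of different genes were compared per kilobase of exon and per M reads. In the wild type the order was Cacna1f (27.7 ± 2.09), Cacna1h (5.94 ± 0.57), Cacna1g (3.61 ± 0.26), Cacna1s (2.21 ± 0.05), Cacna1i (1.17 ± 0.16), Cacna1d (0.891 ± 0.13), Cacna1b (0.538 ± 0.05), Cacna1a (0.525 ± 0.08), Cacna1c (0.154 ± 0.02) and Cacna1e (0.044 ± 0.003; SD, n = 3 each). Neighbours in this order were apart in all 3 libraries except Cacna1b and Cacna1a, whose ranges overlapped. With the length of the longest transcript in place of the exon union, Cacna1a came before Cacna1b without overlap (0.642 to 0.878 against 0.495 to 0.602), and Cacna1i and Cacna1d overlapped. In the retinas labelled Samd7 KO the order began with Cacna1h at 95.9 ± 8.27, followed by Cacna1f at 25.6 ± 1.53.

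The make-up of the family therefore shifted from Cacna1f to Cacna1h. The Cacna1f share of the family's level per kilobase was 64.7% ± 1.18 in the wild type and 19.7% ± 2.17 in the retinas labelled Samd7 KO. The Cacna1h share was 13.9% ± 0.52 and 73.4% ± 2.63 (SD, n = 3 each). In every library the ratio of Cacna1h to Cacna1f told the groups apart: it was 3.20, 4.25 and 3.84 in the retinas labelled Samd7 KO and 0.216, 0.202 and 0.225 in the wild type. Without Cacna1h, the summed level of the other 9 genes was 34.5 ± 1.72 against 36.8 ± 2.58, with overlapping groups. The shift in shares thus came with a near-equal sum of the other members and a higher level of 1 gene. Among the 18216 tested genes with a known length, Cacna1h lay in the top 37.3% by level per kilobase in the wild type and in the top 2.41% in the retinas labelled Samd7 KO.

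**Figure D2:**
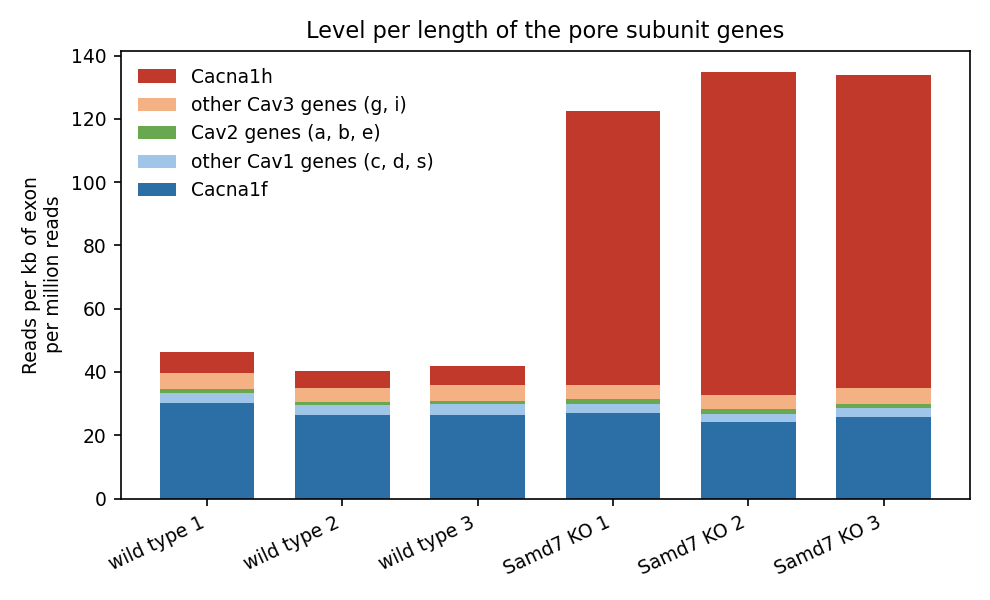
Level of the pore subunit genes per kilobase of exon and per M reads, stacked in 1 bar per retina. Cacna1f and Cacna1h have bands of their own, and the other genes are grouped by class. Cacna1f holds the widest band in the 3 wild-type bars (mean share 64.7%), and Cacna1h in the 3 bars labelled Samd7 KO (mean share 73.4%).

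None of the 14 tested genes named as auxiliary subunits (β, α2δ or γ), of 16 listed, was called. Their log2 differences ran from -0.23 to 0.31, and 3 had an unadjusted p below 0.05. Cacnb2, the β subunit of the photoreceptor channel, had 6331, 8553 and 6762 normalised counts against 7319, 7259 and 6731, a log2 difference of 0.01 (95% interval -0.21 to 0.23, limma adjusted p = 0.961). Cacna2d4, its α2δ partner at the photoreceptor terminal, had 19479, 19171 and 20022 against 18161, 16296 and 17559. All of its values labelled Samd7 KO lay above the wild type, and the log2 difference was 0.17 (0.04 to 0.31, limma adjusted p = 0.103). Other tools gave calls in these lists: limma-voom with quality weights called Cacna2d4 (adjusted p = 0.0138), Cacna2d3 (0.0105) and Cacng4 (0.00513). DESeq2 called Cacng4 (adjusted p = 0.0452), limma with total-read scaling called Cacna2d4 (0.0195) and Cacng4 (0.0245), and edgeR called none. Cacng1 and Cacng6 did not pass the filter, and whether the 6 tested γ genes serve calcium channels was not examined.

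**Figure D3:**
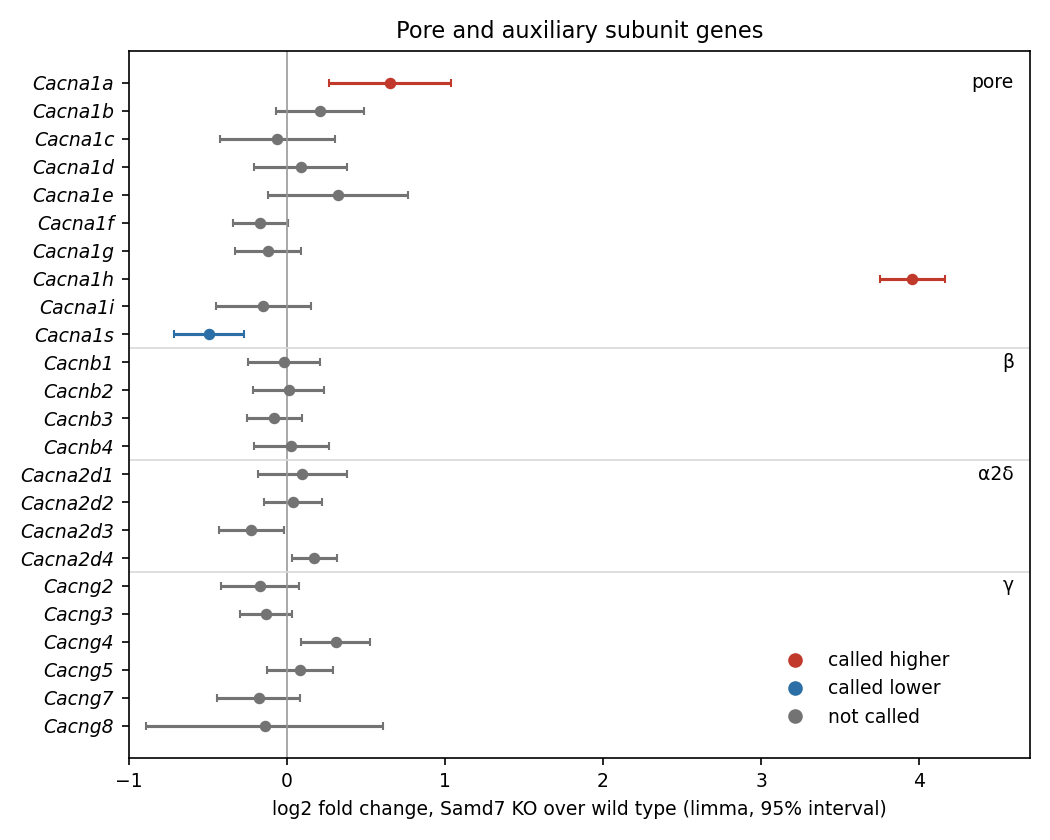
Log2 fold change of each pore, β, α2δ and γ subunit gene tested, retinas labelled Samd7 KO over wild type, with limma's 95% interval. Cacna1h lies at 3.96, far to the right of all others, and the 14 genes named as β, α2δ or γ subunits lie between -0.23 and 0.31.

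Modulators of the channels gave 1 call higher and 2 lower among 16 tested of 17 listed, with a median log2 difference of -0.15 and 8 at an unadjusted p below 0.05. With the length trend removed 1 was called higher and 5 lower, and with DESeq2 1 higher and 3 lower. Cabp4, the calcium-binding protein that shifts the activation of the photoreceptor L-type channel, had 11267, 10192 and 11459 normalised counts against 16655, 15752 and 15431. It fell in every retina labelled Samd7 KO, 1.45-fold on average (log2 difference -0.54, limma adjusted p = 2.80e-04), and the call held under all alternatives run. Calm3, a calmodulin gene, was lower (log2 difference -0.23, limma adjusted p = 0.0336), and Gem, a small GTPase that inhibits calcium channels, was higher (1757 ± 255 against 1252 ± 237, SD, n = 3 each, limma adjusted p = 0.0468). Calm3 lost its call without any 1 of 5 libraries, all but replicate 1 labelled Samd7 KO (limma adjusted p from 0.0672 to 0.12), with total-read scaling (0.0705) and with no filter (0.0908). Gem lost it without replicate 1 or 2 labelled Samd7 KO or wild-type replicate 1 or 3 (limma adjusted p from 0.0717 to 0.131), and with limma-voom (0.0643).

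At the ribbon synapse, 2 of 13 partner genes were called higher and 1 lower, with a median log2 difference of 0.04. Lrit1, a photoreceptor synaptic membrane protein, had 15401, 21667 and 17949 normalised counts against 13242, 11532 and 12869. It was 1.46-fold higher (limma adjusted p = 0.00670), without overlap of the groups. Pclo, an active zone scaffold, was 1.39-fold higher (limma adjusted p = 0.0229). Elfn1, the rod protein that organises contacts with bipolar cells, was 1.30-fold lower (limma adjusted p = 0.0320). Pclo lost its call without replicate 3 labelled Samd7 KO or wild-type replicate 2 or 3 (limma adjusted p = 0.0558, 0.102 and 0.0912). Elfn1 lost it without replicate 2 labelled Samd7 KO or any wild-type replicate (0.0516 to 0.0921). Rimbp2, which tethers calcium channels at the active zone, had 584 ± 55.3 against 544 ± 38.0 (SD, n = 3 each) and was not called (limma adjusted p = 0.632).

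Calcium-activated channels of nerve terminals gave 0 calls among 8 tested by limma, with 2 at an unadjusted p below 0.05 and a median log2 difference of 0.19. edgeR and DESeq2 each called 1 higher, and limma-voom 2. With total-read scaling 2 were called higher, and with the length trend removed 1. Kcnma1, the large-conductance potassium channel, had 4442, 6322 and 5276 normalised counts against 4421, 3660 and 4187, with the lowest value labelled Samd7 KO close to the highest wild-type value. The log2 difference was 0.38 (limma adjusted p = 0.0624).

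Calcium clearance and stores gave 3 calls higher and 2 lower among 23 genes, with a median log2 difference of 0.02. With the length trend removed 2 were called higher and 4 lower, and with total-read scaling 4 higher and 1 lower. Slc24a1, the rod sodium, calcium and potassium exchanger, had 39660, 50785 and 45525 normalised counts against 74354, 66443 and 68729. It was 1.54-fold lower (limma adjusted p = 3.99e-04), and its groups did not overlap. Atp2a2, a calcium pump of the endoplasmic reticulum, was 1.38-fold higher (limma adjusted p = 0.00855), and Orai1, a store-operated channel, 1.39-fold higher (limma adjusted p = 0.00579). These 3 calls held under all alternatives run. Itpr3, an inositol trisphosphate receptor, was 1.73-fold higher (limma adjusted p = 0.0254), and Orai2 was 1.20-fold lower (limma adjusted p = 0.0499). Itpr3 lost its call without replicate 3 labelled Samd7 KO or wild-type replicate 2 or 3 (limma adjusted p = 0.117, 0.106 and 0.0925) and with the length trend removed (0.0630). Orai2 lost it without any 1 of the 6 libraries (limma adjusted p from 0.0516 to 0.242) and with total-read scaling, a pseudocount of 0.5 or no filter. Over the 74 tested genes of these lists and the auxiliary lists, 11 were called. Of all genes tested 12% were called, the share to set beside this count and the count of each list.

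Genes whose profile over the 6 libraries lay nearest to each called member were found by Euclidean distance of log2(normalised count + 1). For Cacna1h they were Tafa3 (distance 1.24), Gngt2 (1.30), Samd7 (2.37), Map6 (2.73) and Shisal1 (2.80). Tafa3 was 7.80-fold higher and Gngt2, the cone transducin gamma subunit, 9.12-fold higher in the retinas labelled Samd7 KO. The distance reads both level and difference, and Cacna1h had the largest log2 difference of the 6. For Cacna1a the nearest genes were Setbp1 (0.474), Tmem28, Ajap1, Trmt61b and Zfp275 (0.548), and for Cacna1s they were Mzf1 (0.170), Gm31005, Jade2, Ccdc34 and Plvap (0.269).

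The called members lie on different chromosomes (GRCm38, RefSeq): Cacna1h at chr17:25374285-25436334 on the - strand, Cacna1a at chr8:84338631-84640251 on the + strand and Cacna1s at chr1:136052806-136119822 on the + strand. The next gene upstream of Cacna1h is Tekt4, a sperm tail filament gene on the + strand, whose start lies 18.2 kb from that of Cacna1h. Its normalised counts were 951, 1026 and 941 in the retinas labelled Samd7 KO and 29.1, 40.0 and 30.1 in the wild type. The groups were far apart, at 973 ± 46.6 and 33.1 ± 6.05 (SD, n = 3 each), a 29.4-fold difference (limma adjusted p = 2.25e-09). Gm33617, a long non-coding RNA inside Cacna1h, was also called higher, at 20.1 ± 4.17 against 1.22 ± 1.29 (SD, n = 3 each, limma adjusted p = 0.00216), but its reads may not have been told apart from those of Cacna1h. Beside Cacna1h, Gm5430, Sstr5 and Gm33727 were also tested among the nearest genes and were not called (limma adjusted p = 0.907, 0.293 and 0.750). Of the 3 nearest genes on each side, 4 of 6 were tested beside Cacna1a and 4 of 6 beside Cacna1s, and limma called 0 of these 8. Unadjusted p-values below 0.05 were found for Mri1 beside Cacna1a, and for Igfn1 and Kif21b beside Cacna1s, all of them lower. Kif21b, a kinesin, had 5734, 6346 and 6042 normalised counts in the retinas labelled Samd7 KO and 7395, 6641 and 7552 in the wild type, without overlap (log2 difference -0.25, limma adjusted p = 0.0532). Kif21b was called lower by edgeR with TMM factors (adjusted p = 0.0402), DESeq2 (0.0397) and limma-voom (0.00484), and Mri1 by DESeq2 (0.0484) and limma-voom (0.0240). Without replicate 1 labelled Samd7 KO, limma called Igfn1 and Mri1 lower (adjusted p = 0.0157 and 0.0140).

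Within 500 kb of Cacna1h, a window chosen after the values were seen, 50 of 73 genes were tested, and 5 were called higher and 2 lower, or 14.0% against 12% of all genes. The lower genes, Spsb3 and Rab40c, each lost their call without any 1 of the 3 wild-type replicates (limma adjusted p from 0.05003 to 0.107 and from 0.0586 to 0.102). Besides Tekt4 and Gm33617, the higher genes were Chtf18, a clamp loader factor (3.68-fold), Gng13, a G protein gamma subunit of ON bipolar cells (1.82-fold), and the pseudogene Gm5836. Chtf18 and Gng13 overlap at their ends on opposite strands, so their reads may not have been told apart. The median log2 difference over the window was -0.09.

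**Figure D4:**
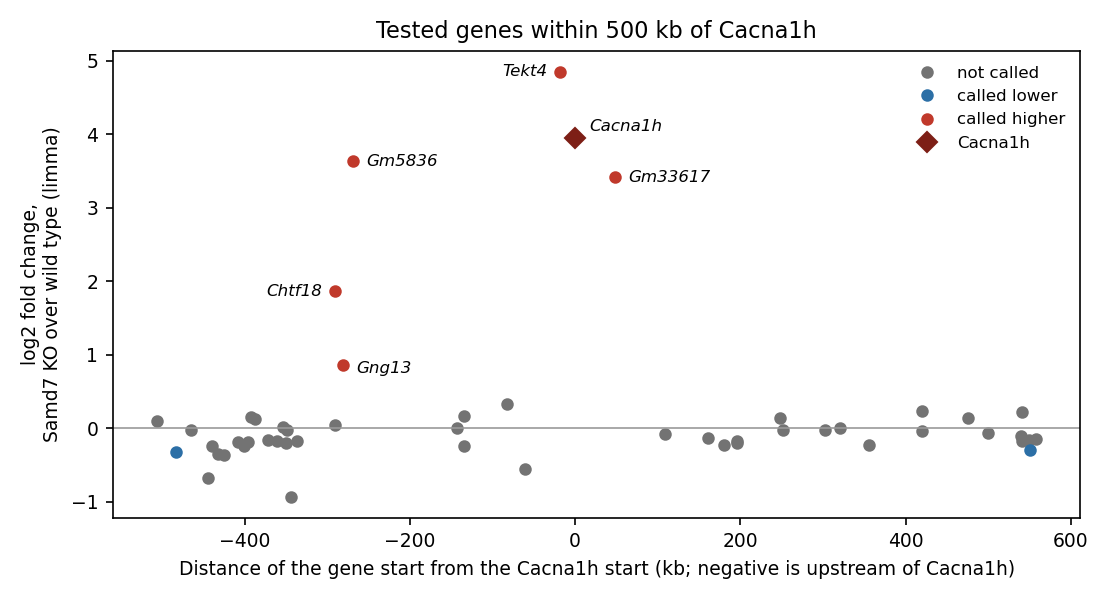
Log2 fold change of each tested gene within 500 kb of Cacna1h, against the distance of its start from the start of Cacna1h in kb. Cacna1h and the genes called higher are named. Cacna1h (3.96) and Tekt4 (4.85) are neighbours at the centre, and most other genes lie near 0.

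Markers of other cell types are given for all 3 calls together. Bipolar markers summed to 49357 to 54147 normalised counts in the retinas labelled Samd7 KO and 47459 to 49673 in the wild type, with 1 of 8 called lower and 0 higher by limma and 5 at an unadjusted p below 0.05. With total-read scaling 3 bipolar markers were called higher and 0 lower, and with limma-voom 3 higher and 1 lower. Cone markers summed to 469013 to 491796 against 125972 to 128866, with 1 of 6 called higher and 1 lower. Those were the opsins Opn1sw, 9.53-fold higher, and Opn1mw, 2.47-fold lower. Opn1sw made up most of the cone sum in the retinas labelled Samd7 KO, at a mean of 416374 against 43705. Arr3, Gnat2 and Pde6h had slightly lower means (26646, 16282 and 10766 against 27128, 18305 and 11226), and Pde6c a higher one (4379 against 3629). Müller glia markers gave 1 call higher and 1 lower of 4, and amacrine cells 1 lower of 7, while 0 of 4 horizontal and 0 of 5 ganglion cell markers were called. Microglia and red blood cell markers were called higher in 4 of 4 each, and endothelial markers in 1 of 4. Retinal pigment epithelium markers were called lower in 4 of 5 and summed to 834 to 2004 against 3273 to 5550. Smooth muscle and pericyte markers, the vessel cells in which T-type and Cacna1c channels are known, summed to 2846 to 3126 against 2288 to 2552, with Tagln at 0 in all 6 libraries and 0 of 6 tested called. DESeq2 called 2 of these higher, limma with total-read scaling 2, limma-voom 3 and edgeR 0, and 4 had an unadjusted limma p below 0.05. Wild-type replicate 3 stood apart in lens markers, at a sum of 5397 against 26.0 to 67.7 in the others. Without it the log2 differences were 3.96 for Cacna1h, -0.52 for Cacna1s and 0.65 for Cacna1a, which was then no longer called. The part of these other cell types in the 3 calls was not tested.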

How the data were processed

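Retina RNA from 6 libraries, 3 labelled Samd7 KO and 3 wild type, was analysed from 1 deposited gene table. Its per-library values are a signal, read counts that the authors divided by a size factor per library, and 100% of the 166478 values above 0 were whole reads within 0.01 reads once multiplied back. The authors' deposited columns also hold log2 fold changes with their errors, a test statistic (a score) and p-values. Per the submitters' processing notes, STAR 2.7.3a, HTSeq 0.12.4, DRAGEN, DESeq2, SAMtools 1.9 and cutadapt 3.0 were used with the builds GRCm38 and mm10. What each tool did, and whether counting used strand, is not given here. Totals of 44.2 to 62.8 M reads set the counting noise. Replicates of a group were not copies of 1 library: their counts differed beyond sampling noise. Separate preparation can add such differences, so they do not show whether the retinas came from different mice.

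Differences were tested with limma 3.58.1 in R 4.3.3 on log2(value + 1), on genes with at least 10 in 3 libraries, adjusted by Benjamini-Hochberg over all 20277 and called at 0.05. Alternatives were edgeR 4.0.16 and DESeq2 1.42.0 on recovered reads, limma-voom, total-read scaling, removal of a length trend, pseudocounts 0.5 and 5, no filter, a filter of 50, a replicate block and each library left out. The count tests were only alternatives because the deposited values were normalised. The fit was tested on simulated data. Levels per kilobase used GENCODE M21 exon lengths.

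The members and lists were chosen with earlier results of these data known. Named genes were the 10 members, and per list up to 5 called genes by smallest adjusted p and up to 3 uncalled genes by highest value, of which the text prints those its sentences turn on; the photoreceptor partners Cacnb2, Cacna2d4, Cabp4 and Rimbp2; the 5 nearest profiles; and the 3 nearest genes on each side. The values of 1 listed gene are not reported here.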

Additional observations from a re-analysis of the deposited data

How the results depend on the processing

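The Cacna1h and Cacna1s calls kept their direction and stayed past the threshold under all 17 alternatives, with log2 differences of 3.84 to 4.04 and -0.60 to -0.44. Cacna1a was called under 12 of 17, with 0.50 to 0.83. Between 2 and 3 members were called under every alternative. Over all genes limma called 2432; limma-voom called 4650, and leaving out 1 library gave 1313 (without wild-type replicate 3) to 3247 (without replicate 1 labelled Samd7 KO), with 1470 without wild-type replicate 2 and 1497 without replicate 3 labelled Samd7 KO. Total-read scaling called 2810. With the replicate number as a block 1624 genes were called, and 3 members, and the adjusted p of Calm3 was 0.0929, Gem 0.0607, Pclo 0.0507, Elfn1 0.0604 and Orai2 0.131. Same-numbered retinas did not deviate together (correlations of -0.18, -0.13 and -0.01, and no sample correlated best with its own number), so the numbers give no pairing.

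Reversed signs occurred among genes near 0 that were not called, and the cause was not tested. With the length trend removed the log2 difference was -0.034 for Cacna1d, -0.078 for Cacnb2, -0.064 for Cacna2d2, -0.075 for Rims2, -0.082 for Slc8a3 and -0.013 for Rimbp2. With limma-voom it was -0.017 for Cacnb2, 0.090 for Cacnb1 and -0.016 for Rims2, and with total-read scaling 0.038 for Cacnb1. Leaving out 1 library gave -0.19 to 0.015 for Cacna1c, -0.051 to 0.17 for Cacna1d, -0.12 to 0.100 for Cacnb2, -0.099 to 0.071 for Cacnb1, -0.013 to 0.063 for Cacna2d2, -0.070 to 0.085 for Rims2, -0.13 to 0.024 for Ano2 and -0.078 to 0.070 for Slc8a3. Precision is limited by 3 retinas a group and, for Cacna1e, by low counts.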

Other observations

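Around Cacna1s, a window of 500 kb chosen after the values were seen held 23 genes, of which 18 were tested, and 5 were called higher and 2 lower. That is 38.9% of the tested genes, against 12% of all genes, and the count rests on 7 genes. Lad1, a basement membrane anchoring protein, had 1068, 780 and 1101 normalised counts in the retinas labelled Samd7 KO and 186, 160 and 192 in the wild type, a 5.48-fold difference without overlap (limma adjusted p = 4.73e-07). Nav1, a neuronal microtubule guidance protein, was 1.95-fold higher (limma adjusted p = 5.17e-04), and Csrp1, a LIM domain protein, was lower by a log2 difference of -0.59 (limma adjusted p = 8.01e-04). Camsap2 was higher, and so were Tnnt2 and 9230116N13Rik, while Tnni1, the slow skeletal troponin, was lower at 11.6 ± 2.33 against 29.8 ± 6.86 normalised counts (SD, n = 3 each). The last 3 lost their calls when single libraries were left out, with limma adjusted p up to 0.112, 0.0886 and 0.144. The window of 500 kb around Cacna1a held 57 tested genes, with 3 called higher and 3 lower.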
